A study of Mus musculus with 18 samples.

Results

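Plat, Plau, Plaur, Serpine2, Fga, Fgb, Fgg, F3 and Thbd are 9 of the 24054 genes measured in each of 3 tissues, and together they cover the making, the restraint and the dissolving of a fibrin clot. They were chosen by gene symbol, with their differences between the genotypes already known, so the genotype values given for them are a description and carry no test. RNA-Seq was made from hypothalamus, pituitary and thyroid of male C57BL/Ntac mice that were 3 months old and had received no treatment. The K146Q mice were homozygous for a whole-body knock-in that replaces a lysine (K146) of thyroid hormone receptor β (THRB), a site where a small ubiquitin-like modifier is attached; the comparison mice were WT. Each tissue had 3 WT mice (numbered 1, 2 and 43) and 3 K146Q mice (60, 62 and 83), which makes 18 libraries. The same mouse numbers recur in all tissues. Whole tissue was used, so fewer cells of a type and less RNA per cell cannot be told apart in any value below. The knock-in changes a codon, which counts per gene do not show, so the genotype labels were not checked.

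Plasmin cuts fibrin and other matrix proteins, and it is made from circulating plasminogen by tissue-type plasminogen activator (Plat) and urokinase (Plau). Urokinase acts at the cell surface on its receptor, Plaur, and both activators are blocked by serpins, among them protease nexin-1 (Serpine2). Fibrinogen is put together from α, β and γ chains, encoded by Fga, Fgb and Fgg, and is mainly a liver product. Tissue factor (F3) starts coagulation, and thrombomodulin (Thbd) on endothelium turns thrombin into an anticoagulant enzyme. In the thyroid, plasminogen activators have long been studied as products of follicular cells.

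The libraries held 14902330 to 21230050 reads. Values are in normalized CPM, the reads of a gene relative to a library total that the authors had scaled. Differences are given on the log2(CPM + 0.5) scale from a fit by limma, a linear model over all genes, and a difference was called at an adjusted p under 0.05 over all genes tested. A count of 3 reads was worth 0.133 to 0.190 CPM. The labelled tissues matched their defining RNAs: summed neuron markers were 2648 to 2956 CPM in hypothalamus, summed hormone RNAs were at least 109335 CPM in pituitary, and summed follicular markers were at least 90074 CPM in thyroid. The follicular sum, nearly all of it thyroglobulin, was 299233 to 360990 CPM in WT thyroids and 90074 to 137514 CPM in K146Q thyroids, so the remaining genes shared different parts of the total. When library totals were taken without the 10 highest genes, the median difference of all thyroid genes moved from -0.03 to -0.12 on the log2 scale.

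The fibrinogen genes lie side by side on chromosome 3. Fgg (chr3:83007724-83015049, plus strand), Fga (chr3:83026076-83033627, plus strand) and Fgb (chr3:83040141-83049863, minus strand) span 42.1 kb of the GRCm38 genome. The stretch before each start is shown because the 3 neighbours, which the liver transcribes together, differed in these libraries. The sequences are from RefSeq on build GRCm38.p6, written 5′ to 3′ on the strand of the gene, and capitals mark matches to 6 short motifs searched on both strands. The lines below give Fgg chr3:83007474-83007723 (plus strand), Fgb chr3:83049864-83050113 (minus strand) and Fga chr3:83025903-83026075 (plus strand), the last ending before the first start annotated in GENCODE. Distances below are counted from the RefSeq starts.
Fgg: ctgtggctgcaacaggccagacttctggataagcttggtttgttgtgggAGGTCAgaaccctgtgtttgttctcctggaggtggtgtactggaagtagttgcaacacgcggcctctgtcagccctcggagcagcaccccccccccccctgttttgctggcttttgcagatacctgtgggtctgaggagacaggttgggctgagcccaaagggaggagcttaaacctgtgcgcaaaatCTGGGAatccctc
Fgb: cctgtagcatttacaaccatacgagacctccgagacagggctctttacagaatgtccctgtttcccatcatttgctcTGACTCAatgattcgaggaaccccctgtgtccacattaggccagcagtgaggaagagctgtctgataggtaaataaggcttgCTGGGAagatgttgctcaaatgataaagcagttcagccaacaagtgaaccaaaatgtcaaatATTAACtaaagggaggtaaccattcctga
Fga: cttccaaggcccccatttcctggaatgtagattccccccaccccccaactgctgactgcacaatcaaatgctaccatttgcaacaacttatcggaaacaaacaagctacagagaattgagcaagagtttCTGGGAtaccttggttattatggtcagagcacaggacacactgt
CTGGGA, the core letters of an interleukin-6 response element, was found before all 3 genes, and 27.0% of 32851 promoters of the same length hold it. ATTAAC, the reverse of the HNF1 motif letters GTTAAT, was found 29 to 24 bases before the Fgb start and 43 to 38 bases before the Fga start that RefSeq gives, which lies within the gene as annotated here and past the printed stretch; 6.43% of promoters hold that motif. It was not found before Fgg, where AGGTCA, the letters of a thyroid hormone response motif, was found 201 to 196 bases before the start; 14.0% of promoters hold AGGTCA. The AP-1 letters TGACTCA occurred before Fgb, and 4.46% of promoters hold them. The CRE letters TGACG (17.8% of promoters) and the TATA letters TATAAA (12.4%) were not found in the windows of these genes. A match of letters is not a bound site, and the RNA data hold no measure of binding. RefSeq windows were matched for 6 of the 9 genes. Plat, Plau and Thbd had none.

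Fgg, the γ chain, was at the edge of detection in WT thyroid and well above it in K146Q thyroid. The WT thyroids held 2, 1 and 4 reads (0.126, 0.0633 and 0.241 CPM), and the K146Q thyroids held 1364, 750 and 625 reads (67.6, 44.1 and 36.6 CPM). The groups did not overlap. From 7 reads against 2739, the level was 348-fold higher in K146Q mice, with an exact 95% interval of 169 to 867 that covers counting error only. On the log2(CPM + 0.5) scale, which understates the change of such a low gene, the difference was 6.24 (SE 0.24). It was the 6th largest positive difference of 15200 thyroid genes, and it was 5.99 without K146Q mouse 60.

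The α and β chains did not share that level. Fga had 0 reads in all WT thyroids and in the thyroids of K146Q mice 62 and 83, and 4 reads in K146Q mouse 60. Fgb had 0 reads in the same 5 thyroids and 3 reads in mouse 60. The upper limit that a count of 0 allows was 0.176 CPM in the thyroids of mice 62 and 83. Per kilobase of exon, Fgg was therefore at least 360-fold above Fga in mouse 62 and at least 299.6-fold above it in mouse 83, and at least 455-fold and 379-fold above Fgb (each against 3 reads per library). In mouse 60 the ratio per kilobase was 490-fold for Fga (exact 95% interval 191 to 1802) and 828-fold for Fgb (283 to 4018).

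**Figure D1:**
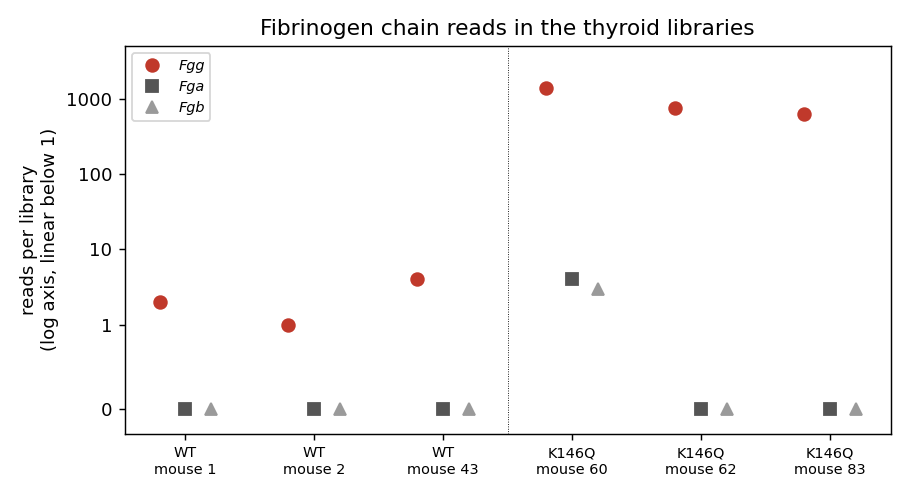
Reads of the 3 fibrinogen chain genes in each thyroid library, on an axis that is logarithmic above 1 and linear below it. Fgg is at 1 to 4 reads in the WT mice and at 625 to 1364 reads in the K146Q mice, while Fga and Fgb are at 0 in every library but that of K146Q mouse 60, with 4 and 3 reads.

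Other liver RNA was looked at in the same libraries. Alb, which encodes serum albumin, had 33 reads (1.64 CPM) in the thyroid of mouse 60 and 0 reads in the other 5 thyroids, and the Apoa1 and Apoh reads (2 and 3) were also in that library alone. In the thyroids of mice 62 and 83, where Fgg was 44.1 and 36.6 CPM, Alb, Apoa1, Apoh, Fga and Fgb were all at 0 reads. Of 14 liver plasma protein genes, 6 were tested in thyroid, of which Apoa2 rose from 0.557 to 1.39 CPM, Itih1 was at 0.370 and 4.27 CPM and was called, having passed the filter through the K146Q mice, and Orm1 fell from 8.29 to 1.95 CPM. Hp, haptoglobin, was at 125 to 136 CPM in WT and 145.7 to 322 CPM in K146Q thyroids (limma adjusted p = 0.0522). These genes were named after their values were seen. Fgg shares 115 exonic bases with Gm30097, an antisense RNA that is not in these tables, and whether the reads were counted by strand is not given in the sources used here, so reads in that stretch cannot be told apart.

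Outside the thyroid the fibrinogen genes were at or near 0. No library of pituitary held a read of Fgb or Fgg, and Fga had 1 read, in WT mouse 1. In hypothalamus, Fga had 1 read (WT mouse 43), Fgb 1 (K146Q mouse 83) and Fgg 2 (K146Q mice 60 and 83). Fga and Fgb passed the filter on low values in no tissue. Within 200 kb of the fibrinogen genes, 2 other genes were tested in thyroid: Lrat, which esterifies retinol, rose from 13.7 to 43.2 CPM (log2 difference 1.73, SE 0.29, limma adjusted p = 0.00337), and Plrg1 differed by 0.14. Rbm46, also in that window, was below the filter, with 15 reads in WT and 58 in K146Q thyroids and no overlap in CPM. Among all thyroid genes tested, 37.8% were called. These neighbours were named after their values were seen.

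Plat (chr8:22757727-22782844, plus strand), tissue-type plasminogen activator, was read in every library, and its level differed widely between the thyroids. The WT thyroids had 17.0, 12.5 and 16.2 CPM. The K146Q thyroids had 664, 679 and 704 CPM. Each K146Q thyroid thus stood far above each WT thyroid, and the spread within either genotype was small beside the gap. The means were 15.3 ± 2.39 and 683 ± 20.2 CPM (SD, n = 3), a 44.8-fold ratio, from 737 and 36976 reads. The log2 difference was 5.45 (SE 0.12), the 12th largest positive difference of 15200 genes. It stayed between 5.32 and 5.53 when any 1 mouse was left out, WT mouse 1 included, whose thyroid held the most pituitary hormone RNA (597 CPM in sum, against 100.3 to 156 CPM in K146Q mice).

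In the other tissues Plat was close between the genotypes. In pituitary the WT mice had 52.9, 55.3 and 55.8 CPM and the K146Q mice 57.6, 43.2 and 51.6 CPM, which overlapped (log2 difference -0.11, SE 0.10). In hypothalamus the WT mice had 31.8, 31.6 and 34.1 CPM and the K146Q mice 27.8, 31.3 and 29.6 CPM. There the groups did not overlap, but the log2 difference was -0.14 (SE 0.07) and was not called. Ordered by level, Plat went from K146Q thyroid through WT and K146Q pituitary, which overlapped, to WT hypothalamus, K146Q hypothalamus and, lowest, WT thyroid. Of 7 genes tested within 200 kb of Plat in thyroid, Ikbkb rose from 53.9 to 95.3 CPM (log2 difference 0.82, limma adjusted p = 2.44e-04) and Slc20a2 fell from 81.8 to 64.0 CPM (-0.35, adjusted p = 0.0153). Of all thyroid genes tested, 37.8% were called, and these neighbours were named after their values were seen.

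**Figure D2:**
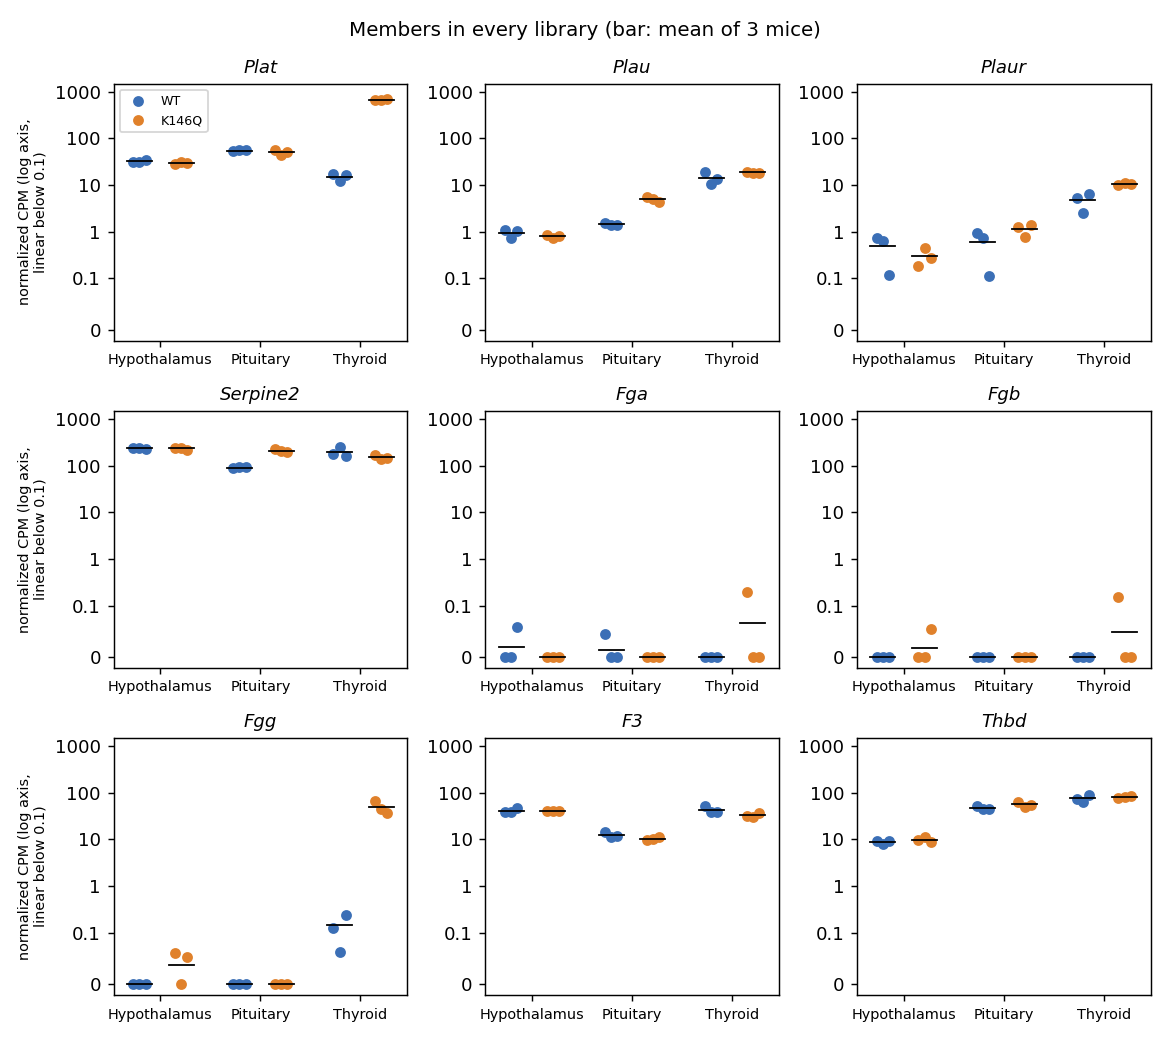
Normalized CPM of the 9 genes in every library, by tissue, with WT mice in blue, K146Q mice in orange and a bar at the mean of 3 mice; the axis is logarithmic above 0.1 CPM and linear below it. Plat and Fgg stand apart in K146Q thyroid, and Plau and Serpine2 in K146Q pituitary.

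Plau (chr14:20836660-20843385, plus strand), urokinase, differed in the pituitary. The WT pituitaries had 1.56, 1.37 and 1.42 CPM. The K146Q pituitaries had 5.62, 5.16 and 4.26 CPM. No WT value reached the lowest K146Q value. The ratio of means was 3.46 (84 against 295 reads), and the log2 difference was 1.49 (SE 0.16). In thyroid the genotypes overlapped, with 18.7, 10.4 and 13.4 CPM in WT mice and 19.3, 18.5 and 18.1 CPM in K146Q mice. In hypothalamus Plau was at 0.751 to 1.07 CPM in WT mice and 0.750 to 0.845 CPM in K146Q mice. Plau lies 2.8 Mb beyond the end of Thrb, the mutated gene, on the same chromosome. The 10 genes tested within 200 kb of Plau differed in pituitary by -0.25 to 0.07 on the log2 scale; limma and edgeR called 0 of them and DESeq2 called 1, and 2 had an unadjusted p under 0.05.

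Plaur (chr7:24462484-24475968, plus strand), the urokinase receptor, differed in the thyroid. The WT thyroids had 5.18, 2.53 and 6.44 CPM. The K146Q thyroids had 9.91, 11.2 and 10.4 CPM. All K146Q values lay above all WT values, with WT mouse 2 lowest. The ratio of means was 2.22, and the log2 difference was 1.16 (SE 0.29); it was no longer called when K146Q mouse 62 was left out. In pituitary the receptor was near 1 CPM or below (WT 0.114 to 0.934 CPM, K146Q 0.766 to 1.40 CPM), and the genotypes overlapped. In hypothalamus it was below the filter, with 25 reads in WT and 17 in K146Q mice in all.

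Serpine2 (chr1:79794197-79861180, minus strand), an inhibitor of thrombin and of plasminogen activators, was abundant in all tissues. The WT pituitaries had 88.9, 91.8 and 92.9 CPM. The K146Q pituitaries had 222, 203 and 196 CPM. Each K146Q pituitary held more than the highest WT pituitary, and both groups were narrow. The ratio of means was 2.27, and the log2 difference was 1.18 (SE 0.07). In thyroid, WT mice had 180.2, 246 and 158 CPM and K146Q mice 169, 140.3 and 144 CPM, which overlapped. In hypothalamus all 6 values lay between 221 and 240.3 CPM. WT pituitary was the lowest of the 6 groups, and K146Q pituitary overlapped WT thyroid and K146Q hypothalamus.

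F3 (chr3:121723537-121735048, plus strand), tissue factor, was lower in K146Q mice by a small amount in pituitary and thyroid. In pituitary it was 14.1, 11.6 and 12.1 CPM in WT mice and 9.70, 10.2 and 11.1 CPM in K146Q mice (log2 difference -0.27). In thyroid it was 52.2, 38.9 and 38.7 CPM in WT mice and 32.1, 30.03 and 36.5 CPM in K146Q mice (-0.38). The genotypes did not overlap in either tissue, but neither difference was called. Among all genes tested, 31.0% in pituitary and 52.3% in thyroid did not overlap. In hypothalamus the values overlapped, at 38.2 to 48.3 CPM in WT mice and 40.5 to 41.3 CPM in K146Q mice.

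Thbd (chr2:148404466-148408188, minus strand), thrombomodulin, overlapped between the genotypes in every tissue. In thyroid it was 75.0, 62.3 and 89.5 CPM in WT mice and 79.0, 79.6 and 86.2 CPM in K146Q mice. In pituitary it was 51.2, 44.8 and 44.0 CPM in WT mice and 64.0, 49.9 and 55.6 CPM in K146Q mice. In hypothalamus all values lay between 8.15 and 11.1 CPM.

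**Figure D3:**
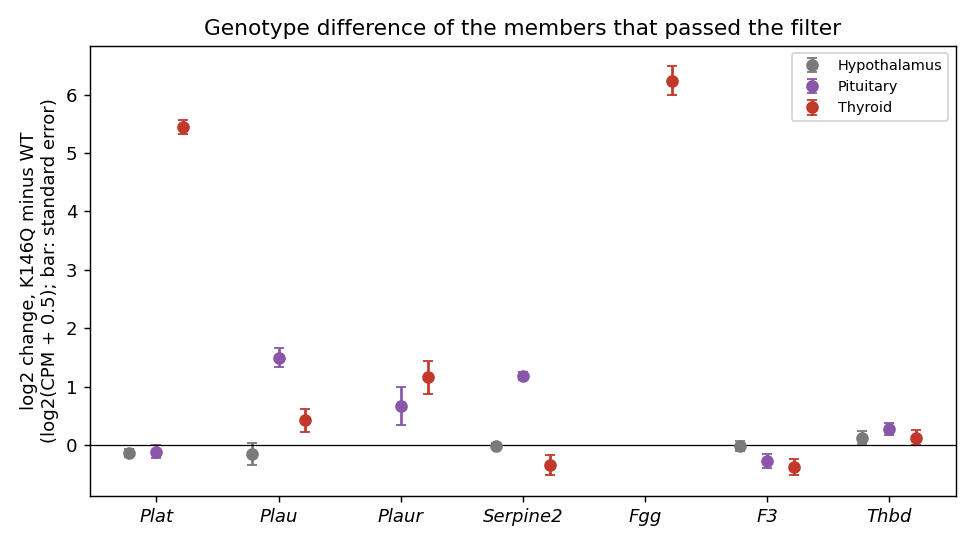
Log2 difference, K146Q minus WT, of each gene that passed the filter on low values, by tissue, with the standard error of the limma fit as bars. Plat (5.45) and Fgg (6.24) in thyroid exceed the other points, the next being Plau in pituitary (1.49), Serpine2 in pituitary (1.18) and Plaur in thyroid (1.16).

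In counts, 5 of the 9 genes passed the filter in hypothalamus, 6 in pituitary and 7 in thyroid; a gene passed if 3 or more of the 6 libraries reached 0.5 CPM, so Fgg passed in thyroid through the K146Q mice alone. In hypothalamus limma called 0 of the 9, against 0% of 15761 genes, and 1 (Plat) did not overlap, against 9.15% of genes. There 645 genes, or 4.09%, and 0 of the 9 had an unadjusted p under 0.05, edgeR called 0 genes and DESeq2 called 9, and neither tool called one of the 9. In pituitary 2 were called higher (Plau and Serpine2), against 9.86% of 15589 genes called in either direction and 6.36% called higher, and 3 did not overlap, against 31.0%. In thyroid 3 were called higher (Plat, Plaur and Fgg), against 37.8% of 15200 genes called and 19.7% called higher, and 4 did not overlap, against 52.3%. As these contrasts chose the genes, nothing is read from these counts.

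Levels of the members were also set side by side per kilobase of exon within each library, so that activator and inhibitor RNA could be compared. The Plat to Serpine2 ratio was 0.177 to 0.195 in WT and 0.153 to 0.178 in K146Q hypothalamus. In pituitary it was 0.790 to 0.799 in WT mice and 0.282 to 0.350 in K146Q mice. In thyroid it was 0.0675 to 0.136 in WT mice and 5.22 to 6.48 in K146Q mice. The ratio thus lay on opposite sides of 1 in WT and K146Q thyroids, and moved the other way in pituitary, where Serpine2 and not Plat differed. The ratio of Plat to Plau was 12.9 to 15.3 in WT and 3.18 to 4.59 in K146Q pituitary, and 0.345 to 0.459 in WT and 13.03 to 14.7 in K146Q thyroid. Per kilobase of exon, urokinase RNA was therefore the more abundant activator in WT thyroids and tissue-type activator RNA in K146Q thyroids. In CPM without that division, the WT thyroid means were 15.3 for Plat and 14.2 for Plau. The order in WT thyroids thus rested on the exon lengths used (6241 bases for Plat and 2367 for Plau). In K146Q thyroid the mean level per kilobase was 109 CPM for Plat, 23.6 for Fgg, 21.9 for Thbd, 18.2 for Serpine2, 13.02 for F3, 7.87 for Plau and 4.01 for Plaur. In WT thyroid Serpine2 led, at 23.5 CPM per kilobase, and Plat stood at 2.44.

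**Figure D4:**
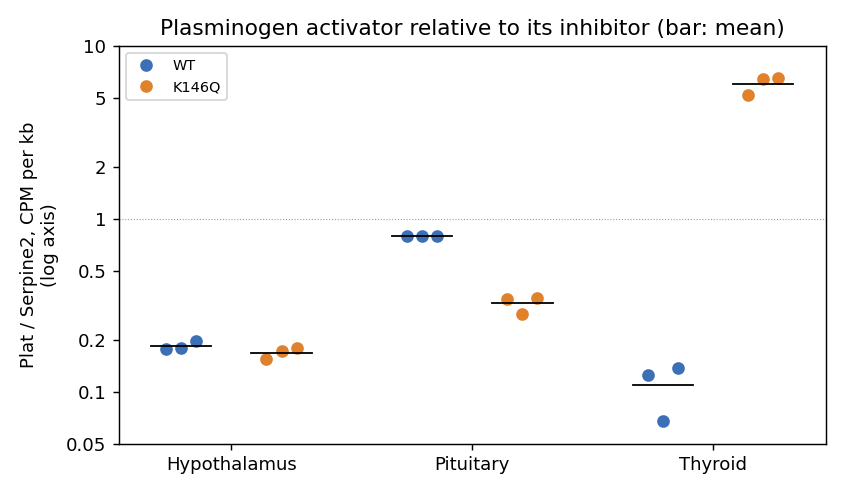
Ratio of Plat to Serpine2 in CPM per kilobase of exon in each library, on a logarithmic axis, with WT mice in blue, K146Q mice in orange and a bar at the mean of 3 mice. The ratio is 0.0675 to 0.136 in WT thyroids and 5.22 to 6.48 in K146Q thyroids, and 0.790 to 0.799 in WT pituitaries and 0.282 to 0.350 in K146Q pituitaries.

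The rule compared genotypes within a tissue and not tissues with each other, so the tissue pattern in WT mice was tested, by limma over 16622 genes in the 9 WT libraries. These libraries also entered the genotype values with which the genes were chosen, so the p-values are not independent of the choice. The 3 tissue comparisons share libraries, and the same 3 mouse numbers recur in each tissue. Between WT pituitary and WT hypothalamus, 4 of the 6 members tested differed, against 72.5% of all genes. Thbd was higher in pituitary by 2.32 on the log2 scale (SE 0.13, adjusted p = 6.47e-08) and Plat by 0.74 (SE 0.11, adjusted p = 1.14e-04). F3 was lower by 1.68 (log2 difference -1.68, SE 0.14, adjusted p = 1.59e-06) and Serpine2 likewise (-1.36, SE 0.13, adjusted p = 4.66e-06). Plau (0.43, adjusted p = 0.0868) and Plaur (0.12, adjusted p = 0.802) did not pass; Plau passed when totals left out the 10 highest genes (0.66, adjusted p = 0.0135).

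Between WT thyroid and WT pituitary all 6 tested members differed, against 74.8% of all genes. Urokinase and its receptor were higher in thyroid, Plau by 2.87 (SE 0.21, adjusted p = 4.79e-07) and Plaur by 2.26 (SE 0.41, adjusted p = 4.98e-04). F3 (1.73, adjusted p = 1.24e-06), Serpine2 (1.07, adjusted p = 3.06e-05) and Thbd (0.68, adjusted p = 6.86e-04) were also higher in thyroid. Plat was the one member that was lower there (-1.82, SE 0.11, adjusted p = 1.09e-07).

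Between WT thyroid and WT hypothalamus 4 of 6 differed, against 81.3% of all genes. Plau (3.30, adjusted p = 8.74e-08), Thbd (3.00, adjusted p = 3.83e-09) and Plaur (2.38, adjusted p = 2.71e-04) were higher in thyroid. Plat was lower (-1.08, adjusted p = 4.33e-06), and Serpine2 (-0.30, adjusted p = 0.0581) and F3 (0.05, adjusted p = 0.771) did not pass; Serpine2 passed without mouse 2 (-0.48), with DESeq2 and with median-of-ratios rescaling. Fga, Fgb and Fgg were below the filter in WT mice.

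The other genes of the pathway were taken as 5 lists, drawn up with earlier results of these data known. Their shares and p-values are therefore a description. The lists held 52 genes in all, none of them a member. In hypothalamus 34 were tested and limma called 0, 1 had an unadjusted p under 0.05, and edgeR and DESeq2 called 0. In pituitary 30 were tested, 5 rose and 0 fell, which is 16.7% against 9.86% of all genes; their median log2 difference was 0.11, against -0.01 for all genes. Without 1 mouse the pituitary count ran from 1 (without K146Q mouse 60) to 6, with 2 called without WT mouse 1 and 3 without K146Q mouse 62 or without WT mouse 2. In thyroid 38 were tested, 14 rose and 2 fell, which is 42.1% against 37.8% of all genes; the median was 0.41, against -0.03.

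The first list was plasminogen and its regulators. Anxa2, a cell-surface docking protein for plasminogen and Plat, rose in thyroid from 289 to 469 CPM (0.70, adjusted p = 0.00154) and was 71.9 and 72.8 CPM in pituitary (adjusted p = 0.901). Neuroserpin (Serpini1), an inhibitor of Plat, rose in pituitary from 79.1 to 131 CPM (0.74, adjusted p = 0.00496), as did vitronectin (Vtn), a plasma and matrix protein, from 10.1 to 14.8 CPM (0.51, adjusted p = 0.0400; called in 1 of 6 fits that left out a mouse). In all, 2 of 9 tested genes of this list rose in pituitary and 1 of 11 in thyroid, and none fell. Plg, which encodes the plasminogen that the activators cut, had 0 reads in all 6 thyroids, 1 read in pituitary, and 9 reads in WT and 11 reads in K146Q hypothalamus.

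Of the coagulation factors, 4 of 10 tested in thyroid rose and 1 fell. F5, the cofactor of prothrombin activation, rose from 5.05 ± 2.62 to 84.0 ± 12.8 CPM (SD, n = 3; log2 difference 4.04, SE 0.34, limma adjusted p = 1.70e-04). Kng1, kininogen, went from 2 reads to 134 reads in all, with a mean of 2.53 CPM in K146Q mice. It passed the filter through the K146Q mice alone, so it had to differ. It is counted among the 4 here and among the 14 pathway genes that rose in thyroid. F13a1, a subunit of the transglutaminase that links fibrin, rose from 18.4 to 31.9 CPM (adjusted p = 0.0400; called in 1 of 6 fits that left out a mouse), and F8, a cofactor made mainly by endothelium, fell from 6.29 to 3.27 CPM (adjusted p = 0.0228; called in 2 of 6 such fits). F2, prothrombin, was 0.623 and 0.374 CPM (adjusted p = 0.473). In pituitary 1 of 4 rose: Vkorc1, which recycles vitamin K, went from 59.4 to 86.9 CPM (adjusted p = 0.0132). Vkorc1 was also among the 4 that rose in thyroid, from 48.1 to 64.6 CPM (limma adjusted p = 0.0250).

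Of the anticoagulants, 2 of 6 rose in thyroid: Pros1, protein S, from 35.5 to 57.1 CPM (log2 difference 0.68, limma adjusted p = 0.00118) and Serping1, the C1 inhibitor, from 97.2 to 164 CPM (0.78, adjusted p = 0.00829). Procr, the endothelial receptor that presents protein C to the thrombomodulin complex, rose in pituitary from 1.01 to 2.57 CPM (1.04, adjusted p = 0.0205; called in 3 of 6 fits that left out a mouse) and was 4.85 and 7.29 CPM in thyroid (adjusted p = 0.0631). Tfpi, which blocks tissue factor, did not pass in pituitary (adjusted p = 0.457) or thyroid (adjusted p = 0.235). Of the 4 protease-activated receptors, F2r, the main thrombin receptor, rose in thyroid from 35.3 to 50.5 CPM (adjusted p = 0.00796), and F2rl1 fell from 19.0 to 13.1 CPM (adjusted p = 0.0197; called in 2 of 6 fits that left out a mouse).

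Fibrinogen-like proteins and fibrin receptors rose in thyroid in 6 of 7 tested genes, against 19.7% of all genes called higher, with a median log2 difference of 1.02 against -0.03. Macrophage markers rose in the same thyroids (4 of 5, summed 154 to 243 CPM in WT and 456 to 534 CPM in K146Q mice), and their part in this was not tested. Fgl2, a fibrinogen-like protein of immune and endothelial cells, rose from 15.4 to 142 CPM (3.16, limma adjusted p = 1.53e-05). Icam1, an adhesion molecule that binds fibrinogen, rose from 82.0 to 220.4 CPM (1.44, adjusted p = 3.71e-04). Itgam and Itgb2, the pair of integrin chains that bind fibrin on myeloid cells, rose from 10.2 to 26.3 CPM (adjusted p = 0.00358) and from 15.4 to 30.9 CPM (adjusted p = 0.00868). In pituitary 1 of 8 passed, Itgam, from 4.01 to 6.32 CPM (adjusted p = 0.0305; called in 1 of 6 fits that left out a mouse).

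**Figure D5:**
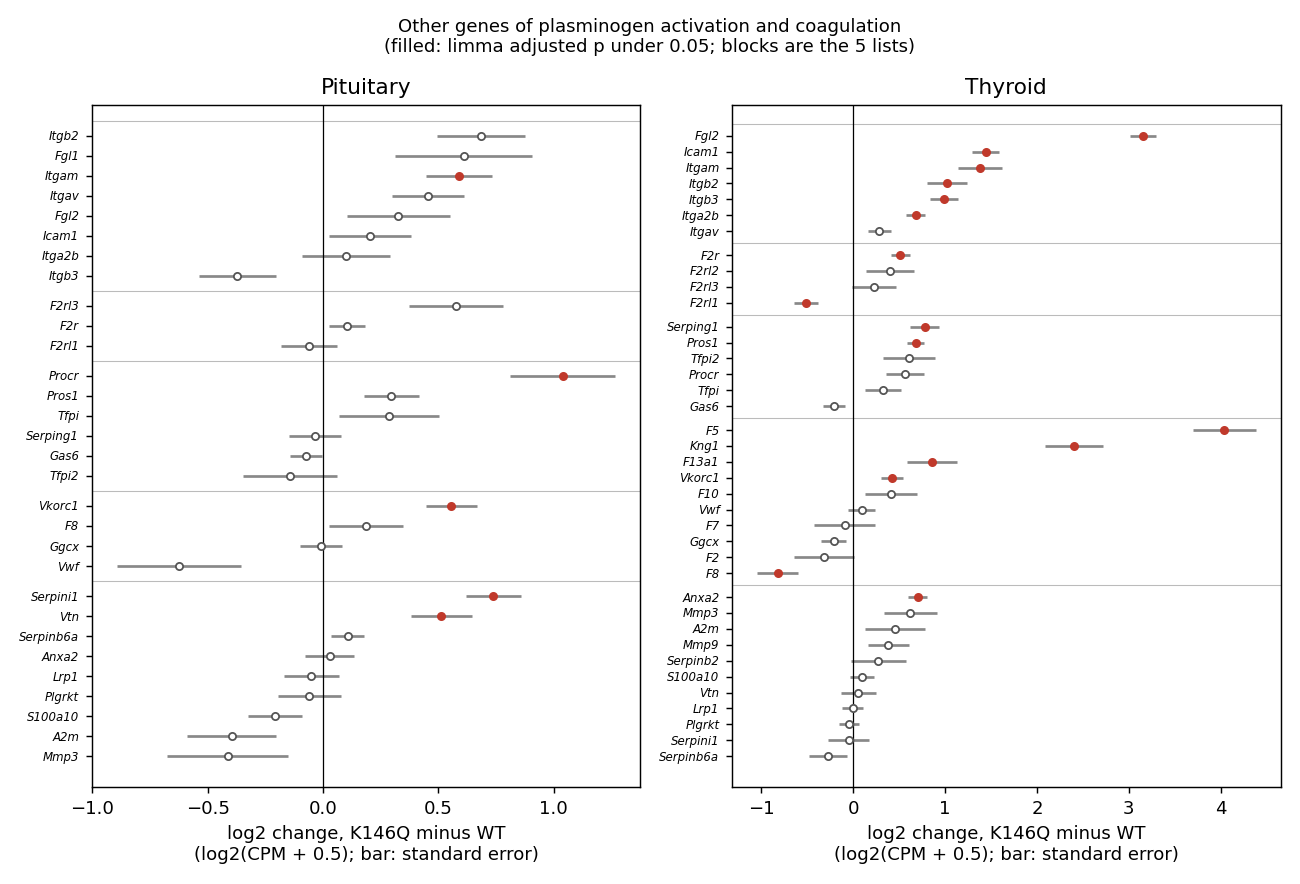
Log2 difference, K146Q minus WT, of each tested gene of the 5 pathway lists, with the standard error of the limma fit as bars and filled points where the limma adjusted p was under 0.05. From bottom to top the blocks are plasminogen and its regulators, coagulation factors, anticoagulants, protease-activated receptors, and fibrinogen-like proteins with fibrin receptors. The horizontal scales differ: at this pseudocount F5 (4.04) and Fgl2 (3.16) lead in thyroid, where Kng1 ranged from 1.70 to 5.94 over the settings tried, and Procr (1.04) and Serpini1 (0.74) in pituitary.

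Markers of other cell types moved in the same libraries, and their part in the results was not tested. Of 5 macrophage markers, 4 rose in thyroid, where their sum was 154 to 243 CPM in WT mice and 456 to 534 CPM in K146Q mice, and 4 rose in pituitary, where it was 81.9 to 97.5 and 137 to 199 CPM. Endothelial markers, to which Thbd is related, had 2 of 8 rising in either tissue, with sums of 850.2 to 989 and 1002 to 1151 CPM in thyroid. All 5 adipocyte markers fell in thyroid (366 to 414 against 54.3 to 109 CPM), as did 3 of 4 parathyroid and C-cell markers (5429 to 8153 against 661 to 1813 CPM), and 1 rose. Of 5 fibroblast markers in thyroid, 2 rose and 2 fell. Of 6 follicular markers in thyroid, 3 rose: Tshr from 253 to 522 CPM, Pax8 from 445 to 581 CPM and Nkx2-1 from 396 to 516 CPM. In that list 0 were called lower, although thyroglobulin (Tg) went from 333547 to 103501 CPM without overlap. The limma fit gave Tg a log2 difference of -1.71 with an SE of 5.14 (adjusted p = 0.820). That SE was large beside the spread of the mice (SD 34931 CPM in WT and 24116 CPM in K146Q thyroids). The missing call is therefore not read as no fall, and the paper reports Tg RNA as significantly reduced. Of 6 platelet and megakaryocyte markers, 4 were tested in thyroid and 1, Itga2b, rose. Hormone markers of the pituitary moved in that tissue too, with 2 of 6 rising and 1 falling. From WT to K146Q pituitary, mean Cga went from 3501 to 18765 CPM, Tshb from 456 to 6983 CPM and Prl from 24873 to 7805 CPM.

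The genes whose log2(CPM + 0.5) followed each member most closely over the 18 libraries, among 17059 genes, were listed as a description. The libraries share 6 tissue and genotype groups, so a high Pearson r can rest on 1 group. Fgg was followed by C4bp (r = 0.998), a complement regulator, and Csn2 (r = 0.997), a milk casein, which went in thyroid from 4 to 463 reads and from 2 to 865 reads. Plat was followed by Pdpn, podoplanin (r = 0.977; 7.59 and 54.3 CPM in WT and K146Q thyroid), and C1qtnf3 (r = 0.974; 10 and 586 reads). Plau was followed by Cd59a (r = 0.988) and Fuca1 (r = 0.985), and Plaur by Aoah (r = 0.976) and Cdca5 (r = 0.972). Serpine2 was followed by Ccnh (r = 0.930) and Acsl4 (r = 0.895), the least close matches. F3 was followed by Dok5 (r = 0.981) and Tacr1 (r = 0.979), and Thbd by Dsg2 (r = 0.996) and Ano10 (r = 0.994). Among the members, r was 0.930 for Plau with Plaur, 0.917 for Fgg with Plat, and -0.50 for Serpine2 with Thbd.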

How the data were processed

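RNA was isolated from snap-frozen tissue, and libraries were made by Illumina protocols. The submitters' processing notes name bcl2fastq 2.17, Bowtie2 2.1.0, RSEM 1.2.15 and mm10, with no role given; annotation and strand of counting are not given in the sources used here. The authors deposited, per tissue, a table with a normalized CPM signal per library, and columns of their own comparisons (log fold change, average level, test statistic, p-value, FDR), which were not used. Dividing by the worth of 1 read gave whole reads for 100% of 432972 values (within 0.05). Replicates were further apart than sampling noise (chi-square per degree of freedom 5.88 to 67.7). Intervals and floors cover counting error only. Within a tissue each library has its own mouse number, and p-values measure the spread between libraries; across tissues the numbers recur.

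Samples were grouped from their titles. The genotypes were compared on log2(CPM + 0.5) by limma 3.58.1 (R 4.3.3) with a mean-variance trend, within each tissue, keeping genes that reached 0.5 CPM in 3 or more of 6 libraries (of 9 for WT tissues), with Benjamini-Hochberg adjustment at 0.05. Since the tables are normalized, edgeR 4.0.16 and DESeq2 1.42.0 on the recovered reads were alternatives, beside other pseudocounts, filters and scalings, no trend, and leaving out each mouse. The scripts were tested on simulated data. Exon lengths and gene positions are from GENCODE M21 (GRCm38), and upstream sequences from RefSeq. Members, lists and tests were chosen with earlier results of these data known. Named genes are the 9 members; Plg, Tfpi, F2, Anxa2 and Procr; per list and tissue up to 4 called genes with the largest change, no overlap and a mean of 1 CPM or more; and the 2 genes most like each member. Results for 1 gene of the lists are not reported here.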

Additional observations from a re-analysis of the deposited data

Results flagged for a closer look

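Plat was picked out because its genotype difference went opposite ways in 2 tissues. In hypothalamus every K146Q mouse lay below every WT mouse (log2 difference -0.14, SE 0.07, not called; 9.15% of genes did not overlap there), and in thyroid every K146Q mouse lay above every WT mouse (5.45). The difference between the tissues was not tested.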

How the results depend on the processing

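Of the counts of called genes, 2 moved by over 1.5 times. The pathway genes called in pituitary (5) ranged from 1 to 6 when 1 mouse was left out: 1 without K146Q mouse 60, 2 without WT mouse 1, 3 without K146Q mouse 62 and 3 without WT mouse 2; it was 3 with no filter on low values. The members called between WT thyroid and WT hypothalamus (4) were 2 when only genes with at least 1 CPM in every library were tested, which leaves fewer genes. The thyroid count of pathway genes (16) was 12 to 17 without 1 mouse. Over 285 refits of 18 member differences between genotypes, 277 stayed within the replicate spread, 8 moved and 0 of the called ones changed sign. The 8 were Plau in pituitary (1.29 to 1.79) and Fgg in thyroid (5.42 to 8.42), under pseudocounts 0.1 and 1, edgeR and DESeq2. Plaur in thyroid was not called without K146Q mouse 62, Plau in thyroid was called without WT mouse 1, and F3 in thyroid was called in 2 of 10 other settings. Of 286 refits of 18 named pathway differences, 34 were no longer called and 0 changed sign; Itgam and Vtn in pituitary and F13a1 in thyroid were each called in 1 of 6 fits without 1 mouse, F8 and F2rl1 in thyroid in 2 and Procr in pituitary in 3. The WT difference of F3 between thyroid and hypothalamus, not called, changed sign with DESeq2 (-0.0059), with median-of-ratios rescaling (-0.0071) and without mouse 1 (-0.15, up to 0.23 without mouse 43). With totals taken without the 10 highest genes, calls in K146Q pituitary were 48.7% higher in place of 64.5%, and in thyroid 40.8% in place of 52.1%; in WT mice, 62.8% in place of 50.9% (pituitary against hypothalamus) and 37.2% in place of 48.7% (thyroid against pituitary). The cause was not tested.

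Same-numbered libraries of different tissues were not clearly paired (correlation of deviations -0.03 to 0.17). With mouse number as a replicate block, the members called between WT tissues were 4, 6 and 4, as without it. Genotypes share no mouse number.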
